A study of Mus musculus with 21 samples.

Results

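The 9 genes described here, which form the IL-22, IL-17 and IL-10 receptor axis, were followed across 7 groups of mouse colon libraries. They were the rows of the deposited count table with the symbols Il22ra1, Il22ra2, Il10ra, Il10rb, Il17a, Il17ra, Il17rc, Il23a and Il23r, that is 9 of 24062 genes in all. They were selected on their names as parts of this axis, but the list was drawn up with earlier results of these data in view. The measured value known then was the tumour against normal fold change, in which Il22ra2 stood among the most reduced genes of knock-in male tumours, so that value is given below as a description and carries no weight as a test. Of the 9 genes, 7 passed the filter on low counts. Il17a and Il23r did not pass it, and they are described by their counts.

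The cytokines of this axis link lymphoid cells to the gut lining. IL-22 binds a receptor made of IL-22RA1, which epithelial cells carry and most leukocytes lack, and IL-10RB, a chain shared with the receptors for IL-10 and for interferon lambda. IL-22 receptor binding activates STAT3, which drives antimicrobial and repair genes in the colon, and the secreted decoy IL-22RA2, also called IL-22 binding protein, captures IL-22 before it reaches its receptor. IL-17A signals through IL-17RA together with IL-17RC and raises neutrophil-attracting chemokines. IL-23, built from the p19 chain encoded by Il23a and the p40 chain encoded by Il12b, acts through IL-23R on type 17 T cells and innate lymphoid cells, which make IL-17A and IL-22. IL-10 acts mainly on leukocytes, through IL-10RA with IL-10RB, and restrains inflammation.

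The libraries were made from colon of C57BL/6 mice. They were either wild-type or knock-in for App NL-G-F, a mutated form of App (amyloid precursor protein) made to model Alzheimer's disease. The 7 groups, each with 3 libraries, were wild-type male normal colon, wild-type male tumour, knock-in male normal colon, knock-in male tumour, wild-type female normal colon, wild-type female tumour and knock-in female normal colon. Tumour libraries were labelled as treated with AOM/DSS, which is the carcinogen azoxymethane followed by the colon irritant dextran sulfate sodium, and normal libraries as untreated. The description of the series, however, speaks of normal tissue beside tumours, or of normal colon where no tumour had grown. Tumour and treatment therefore cannot be told apart in these comparisons. The labels give no ages, and they do not say whether the libraries came from separate animals, so p-values measure the spread between these libraries, which may be technical. No library was labelled as a tumour of knock-in females. The knock-in replaces bases within App itself, and gene counts do not check it.

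Library totals ran from 3414123 to 26174008 counts. Values are given as CPM, counts scaled to a common library size, with TMM as edgeR's correction for composition. In these units 3 counts, taken as the floor of detection, corresponded to 0.127 CPM in the deepest library and 0.873 CPM in the shallowest. Epithelial marker genes, a list of 9 that includes Epcam, Cdh1 and Krt20, were detected in all 21 libraries, with summed levels from 5731 to 11272 CPM. The tumour libraries held less smooth muscle RNA: all 8 muscle markers fell in each of the 3 tumour comparisons, and their summed level went from 2836 to 9533 CPM in wild-type male normal colon to 188 to 742 CPM in the tumours. In whole tissue, fewer cells of a type and less RNA per cell cannot be told apart, and the part of the muscle RNA in the results below was not tested.

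The epithelial receptor chains Il22ra1 and Il17rc moved together in the results below, and the stretch upstream of each start is shown here for that reason. Both come from RefSeq (GRCm38.p6), where 4 of the 9 genes had an entry, and only bases ahead of every annotated start are printed. The capitals mark matches of the GC box GGGCGG on either strand.

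Il22ra1 chr4:135727909-135728158, plus strand: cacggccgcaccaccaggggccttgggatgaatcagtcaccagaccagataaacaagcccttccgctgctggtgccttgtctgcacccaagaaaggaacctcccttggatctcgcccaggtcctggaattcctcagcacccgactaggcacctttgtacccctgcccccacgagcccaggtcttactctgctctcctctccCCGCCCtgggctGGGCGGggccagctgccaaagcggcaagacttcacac

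Il17rc chr6:113471205-113471426, plus strand: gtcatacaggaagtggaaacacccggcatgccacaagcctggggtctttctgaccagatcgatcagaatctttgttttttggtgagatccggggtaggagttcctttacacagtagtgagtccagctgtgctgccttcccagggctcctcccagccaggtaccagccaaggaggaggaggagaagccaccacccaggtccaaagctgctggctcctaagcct

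The Il22ra1 stretch is 250 bases long with 62.4% G and C, and held 2 GC boxes that do not overlap each other, a motif found in 32.7% of 32851 RefSeq promoters cut to the same length. The Il17rc stretch is 222 bases long with 55.9% G and C. It held none of the 4 motifs searched on both strands, which were the GC box, the nuclear receptor half-site AGGTCA, the CDX core TTTATG and the STAT element TTCNNNGAA. Those letters occur in 28.8%, 12.6%, 9.62% and 6.31% of promoters of that length. The pair thus shared none of these 4 motifs in these windows.

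In GRCm38 coordinates (GENCODE), Il22ra1 lies at chr4:135728172-135752140 and Il22ra2 at chr10:19621998-19634681, both on the plus strand. Il17rc lies at chr6:113471427-113483140 and Il17ra at chr6:120463247-120487559, both on the plus strand of the same chromosome. Il23a lies at chr10:128296139-128298752 and Il10ra at chr9:45253837-45269149, both on the minus strand. Il10rb, at chr16:91406164-91425834 on the plus strand, shares 13288 bases of its span with the annotated gene Gm21970 on the same strand. Il10ra shares 236 bases with Gm20612 on the opposite strand and 65 bases with Mir7086 on the same strand. How reads in shared stretches were assigned is not given in the sources used here, so the values of Il10rb and Il10ra are uncertain to that extent.

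Levels per kilobase of the longest annotated transcript allow the genes to be set side by side. In wild-type male normal colon the epithelial receptor chains stood highest, with Il22ra1 at 50.6 ± 12.1 CPM per kb and Il17rc at 43.2 ± 7.48 CPM per kb (SD, n = 3), which do not differ beyond their spread. Il10rb followed at 19.7 ± 1.88 CPM per kb. Il17ra and Il10ra were close to each other, at 4.17 ± 0.268 and 3.27 ± 0.887 CPM per kb. Il23a and the decoy Il22ra2 stood lower, at 0.894 ± 0.575 and 0.832 ± 0.974 CPM per kb, and again overlapped. Il23r, at 0.156 ± 0.106 CPM per kb, and Il17a, at 0.0774 ± 0.101 CPM per kb, were at the bottom.

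**Figure D1:**
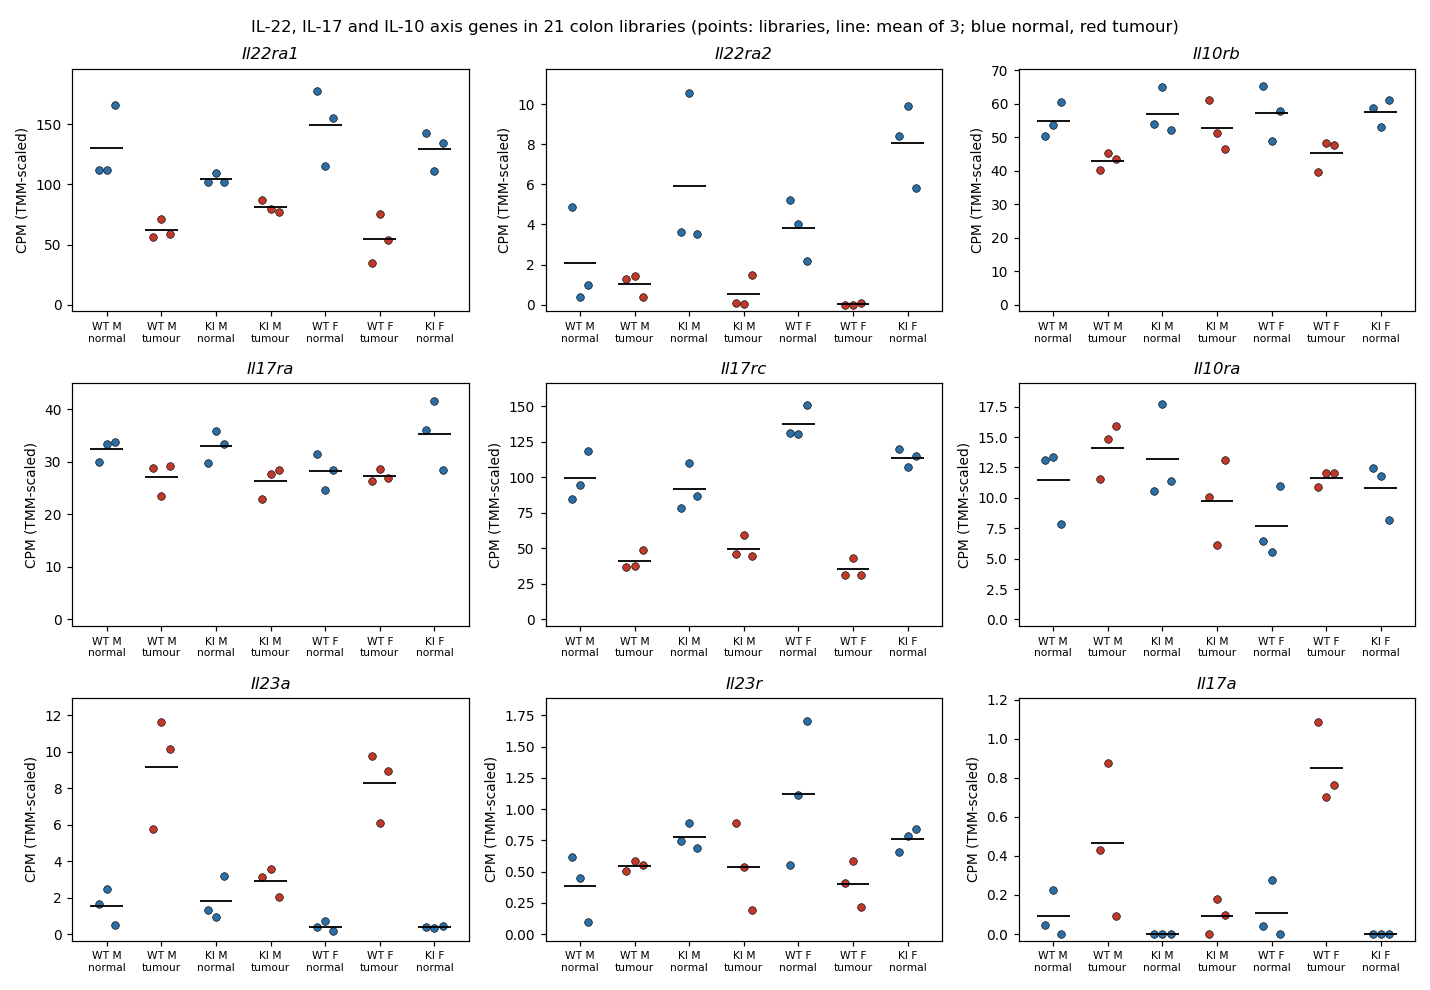
Each panel plots 1 gene of the axis, with the TMM-scaled CPM of each library on a linear vertical axis, the 7 groups on the horizontal axis, blue points for normal colon, red points for tumours and a line at the mean of 3. Il22ra1 and Il17rc are lower in every tumour library than in the normal libraries of the same sex and genotype, whereas the 6 wild-type tumour libraries hold the 6 highest Il23a values.

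The comparison of tumours with normal colon asked which parts of the axis differ in AOM/DSS tumours. In wild-type males 1 of the 7 tested genes, Il23a, rose and 3, Il22ra1, Il17rc and Il10rb, fell (edgeR quasi-likelihood test, Benjamini-Hochberg adjusted p under 0.05). Of all 15936 tested genes 35.7% passed there, 16.5% upward and 19.3% downward. In wild-type females Il23a rose and Il22ra1, Il22ra2, Il17rc and Il10rb fell, 5 of 7, against 49.1% of all genes, 25% upward and 24% downward. In knock-in males none rose and Il17rc fell, 1 of the 6 genes other than Il22ra2, where 20.4% of all genes passed, 9.97% downward. Il22ra2 is left out of that count, as its value there was known when the genes were chosen. No share of the 7 genes was tested against its background. The median log2 fold changes of the 7 genes, Il22ra2 included, were -0.35, -0.34 and -0.36 in wild-type males, wild-type females and knock-in males, beside 0.01 for all tested genes in each.

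Il22ra1, the chain that gives epithelial cells their response to IL-22, was measured at 112, 112 and 166 CPM in wild-type male normal colon and at 56.5, 71.0 and 59.1 CPM in the tumours. The lowest normal library thus stood above the highest tumour library, and the gene fell by 1.07 on the log2 scale (SE 0.22, adjusted p = 0.00118). In wild-type females normal colon held 178, 115 and 155 CPM and the tumours 34.8, 75.1 and 53.8 CPM. The groups again did not overlap, and the fall was by 1.45 on the log2 scale (SE 0.22, adjusted p = 3.39e-05). Knock-in males stood closer together. Their normal libraries had 102, 109.6 and 102 CPM and their tumours 87.4, 79.9 and 77.0 CPM, which do not overlap, but the log2 difference of -0.36 (SE 0.21) missed the threshold at an adjusted p of 0.233. Ordered by mean, the 7 groups ran from wild-type female normal colon (149 ± 31.9 CPM) through wild-type male (130.1 ± 31.0), knock-in female (129.6 ± 16.3) and knock-in male normal colon (105 ± 4.18) to knock-in male (81.4 ± 5.35), wild-type male (62.2 ± 7.75) and wild-type female tumours (54.6 ± 20.2; SD, n = 3 each). The spreads of the first 3 overlap, as do those of the last 2.

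Il17rc, the chain that pairs with IL-17RA in the receptor for IL-17A and IL-17F, had the firmest falls among the receptor chains. In wild-type females its level was 131, 130.3 and 151 CPM in normal colon and 31.4, 43.5 and 31.5 CPM in tumours, every tumour library lying far under every normal one (log2 fold change -1.95, SE 0.17, adjusted p = 2.07e-07). In wild-type males it went from 84.8, 94.95 and 118 CPM to 37.1, 37.8 and 48.7 CPM, a fall by 1.26 on the log2 scale (SE 0.17, adjusted p = 3.35e-05). In knock-in males it went from 78.5, 110.3 and 87.1 CPM to 45.7, 59.4 and 44.5 CPM, also without overlap (log2 fold change -0.88, SE 0.17, adjusted p = 0.00286). With offsets for GC content and length this last value was -0.65 with an adjusted p of 0.0538, in a range from 3.92e-05 to 0.0538 over the alternatives. By mean level, wild-type female normal colon (137 ± 11.8 CPM) led knock-in female normal colon (114 ± 6.53), followed by wild-type male (99.4 ± 17.2) and knock-in male normal colon (92.0 ± 16.4), whose spreads overlap. The tumour groups came last at 49.9 ± 8.25 (knock-in male), 41.2 ± 6.51 (wild-type male) and 35.5 ± 6.96 CPM (wild-type female), and the spreads of neighbours in this order overlap.

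In wild-type tumours most epithelial markers fell beside both chains, whereas in knock-in male tumours most did not pass the threshold. Of the 9 markers, 7 fell and 1 rose in wild-type male tumours, 1 fell and 1 rose in knock-in male tumours, and 8 fell and 1 rose in wild-type female tumours, with median log2 fold changes of -0.50, -0.13 and -0.87. Their summed level ran from 8069 to 10799 CPM in wild-type male normal colon and from 6821 to 7261 CPM in the tumours. In wild-type females the ranges were 10459 to 11272 and 5731 to 6952 CPM, and in knock-in males 7996 to 8681 and 7273 to 8474 CPM. No epithelial marker was at 0 in any library. The part of epithelial content in the values of Il22ra1 and Il17rc was not tested.

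Il17ra, the chain common to several IL-17 receptors and present on many cell types, did not pass the threshold in any tumour comparison. Its levels were 29.9, 33.3 and 33.7 CPM in wild-type male normal colon and 28.8, 23.6 and 29.1 CPM in the tumours (log2 fold change -0.24, SE 0.14, adjusted p = 0.197). In knock-in males the normal libraries had 29.8, 35.8 and 33.5 CPM and the tumours 22.9, 27.6 and 28.4 CPM (log2 fold change -0.33, SE 0.14, adjusted p = 0.0981). The groups did not overlap in either case. In wild-type females normal colon ranged from 24.7 to 31.4 CPM and tumours from 26.4 to 28.5 CPM, the tumour values lying inside the normal range. Over all 7 groups the means ran only from 26.3 ± 2.95 CPM in knock-in male tumours to 35.3 ± 6.57 CPM in knock-in female normal colon.

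Il10rb, the chain shared by the IL-22 and IL-10 receptors, had small falls that sat close to the threshold. It was at 50.4, 53.7 and 60.7 CPM in wild-type male normal colon and at 40.3, 45.4 and 43.5 CPM in the tumours (log2 fold change -0.35, SE 0.13, adjusted p = 0.0453). With the replicate number as a block the change was -0.37 with an adjusted p of 0.0647, and the call was lost in 11 of 18 alternatives (adjusted p from 0.0247 to 0.183), including the omission of any 1 library other than normal replicate 1. In wild-type females it was at 65.3, 48.9 and 57.9 CPM in normal colon and at 39.7, 48.4 and 47.8 CPM in tumours (log2 fold change -0.34, SE 0.13, adjusted p = 0.0396), and the call was lost in 10 of 19 alternatives (adjusted p from 0.00709 to 0.215), including the omission of normal or tumour replicate 1 or 3. In knock-in males the normal range of 52.3 to 65.1 CPM and the tumour range of 46.5 to 61.0 CPM overlapped (log2 fold change -0.11, SE 0.13, adjusted p = 0.570).

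Il10ra, the leukocyte chain of the IL-10 receptor, passed in none of the tumour comparisons. It was at 13.1, 13.3 and 7.86 CPM in wild-type male normal colon and 11.5, 14.8 and 15.9 CPM in tumours (log2 fold change 0.29, SE 0.30, adjusted p = 0.479). Knock-in male normal colon held 10.6, 17.7 and 11.4 CPM and the tumours 10.1, 6.15 and 13.1 CPM (log2 fold change -0.45, SE 0.30, adjusted p = 0.285). In wild-type females the levels were 6.43, 5.57 and 11.0 CPM in normal colon and 10.9, 12.0 and 12.1 CPM in tumours (log2 fold change 0.62, SE 0.31, adjusted p = 0.101). The groups overlapped in all 3 comparisons. Of 7 general leukocyte markers such as Ptprc and Laptm5, none changed in wild-type males, 1 fell in knock-in males and 1 rose in wild-type females.

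Il22ra2, the soluble decoy for IL-22, was the most variable gene of the axis, and its low counts are given directly. Wild-type female normal colon held 123, 29 and 14 counts (5.20, 4.04 and 2.17 CPM), whereas the tumours held 0, 0 and 1. Every normal library was thus above every tumour library. The gene fell (adjusted p = 0.00197), and since the tumour group is near 0 the size is best read from the pooled counts: 166 against 1, a ratio of 112 after scaling, with a 95% interval from 19.8 to 4441 that covers counting error only. Knock-in male normal colon held 39, 167 and 41 counts (3.64, 10.6 and 3.54 CPM) and the tumours 1, 1 and 15 (0.0681, 0.0592 and 1.47 CPM). The pooled counts of 247 and 17 give a ratio of 15.96 (9.77 to 27.8), and 15 of the 17 tumour counts came from replicate 3. The log2 fold change of -3.67, given as a description with no test, was -6.34 without that library and -3.09 without tumour replicate 2. In wild-type males the groups overlapped, with 103, 5 and 10 counts in normal colon (4.87, 0.374 and 0.995 CPM) and 18, 5 and 4 in tumours (1.30, 1.46 and 0.368 CPM). There the log2 fold change of -1.15 (SE 0.93, adjusted p = 0.356) rested on normal replicate 1 and was 0.53 without it.

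Across all 7 groups Il22ra2 was highest in knock-in female normal colon, at 8.39, 9.89 and 5.82 CPM (mean 8.03 ± 2.06, SD, n = 3). Knock-in male normal colon (5.92 ± 4.03 CPM), wild-type female normal colon (3.80 ± 1.53) and wild-type male normal colon (2.08 ± 2.43) followed, with spreads that overlap between neighbours. Wild-type male tumours (1.04 ± 0.587 CPM), knock-in male tumours (0.532 ± 0.811) and wild-type female tumours (0.0362 ± 0.0628) were lowest.

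Markers of B cells and lymphoid follicles, the gut structures where cells that make the decoy gather, differed between the same groups. The summed level of 9 such markers, among them Ms4a1, Pax5 and Cr2, ran from 13.1 to 77.6 CPM in wild-type female normal colon and from 6.52 to 7.49 CPM in the tumours, where 6 of 9 fell. In knock-in males it ran from 54.5 to 188 CPM in normal colon and from 7.51 to 48.0 CPM in tumours, where 4 of 9 fell. In wild-type males it ran from 12.95 to 111 CPM and from 22.4 to 26.2 CPM, and 0 of 9 passed. The knock-in male tumour with 15 Il22ra2 counts had the highest marker sum of its group, 48.0 CPM, and so did the wild-type male normal library with 103 counts, 111 CPM. In both of these groups, and in knock-in male and knock-in female normal colon, the libraries had the same order by Il22ra2 and by marker sum. Libraries of the remaining groups did not follow this order. In wild-type female normal colon replicate 3 had the lowest Il22ra2 (2.17 CPM) and the highest marker sum (77.6 CPM). Replicate 2 of that group had 4.04 CPM of Il22ra2 and the lowest sum. In wild-type male tumours replicate 3 likewise had the lowest Il22ra2 (0.368 CPM) and the highest sum (26.2 CPM). Up to 2 of the 9 markers were at 0 in single wild-type female tumours. Of 9 dendritic cell markers, 1 rose in wild-type male tumours, 1 fell in knock-in male tumours and 1 rose in wild-type female tumours. The part of follicle content in the Il22ra2 values was not tested.

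**Figure D2:**
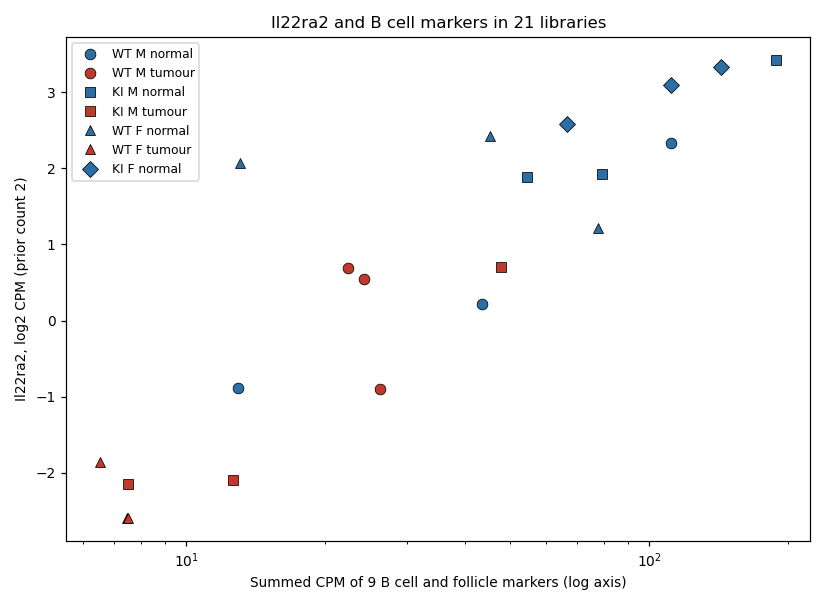
Each point is 1 of 21 libraries, with the summed CPM of 9 B cell and follicle markers on a log horizontal axis and the log2 CPM of Il22ra2 (prior count 2) on the vertical axis; shape and colour give genotype, sex and tissue. The 3 wild-type female tumours, of which 2 lie on top of each other, are at the lower left, with marker sums from 6.52 to 7.49 CPM and 0, 0 and 1 Il22ra2 counts.

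Il23a, which encodes the p19 chain of IL-23 and is made mainly by dendritic cells and macrophages, was the gene of the axis that rose. Wild-type female normal colon held 0.380, 0.697 and 0.155 CPM (9, 5 and 1 counts) and the tumours 9.78, 6.08 and 8.92 CPM (72, 52 and 82 counts). All tumour libraries were far above the normal ones (log2 fold change 4.30, SE 0.58, adjusted p = 9.73e-06). Wild-type male normal colon held 1.65, 2.47 and 0.497 CPM and the tumours 5.76, 11.6 and 10.1 CPM, again without overlap (log2 fold change 2.51, SE 0.49, adjusted p = 0.000717). In knock-in males normal colon held 1.31, 0.950 and 3.20 CPM and the tumours 3.13, 3.55 and 2.06 CPM. These ranges overlap, and the log2 fold change of 0.70 (SE 0.48) had an adjusted p of 0.304. The summed level of the 9 dendritic cell markers ran from 27.1 to 50.9 CPM in wild-type male normal colon and from 48.8 to 72.8 CPM in the tumours, and from 43.2 to 65.4 CPM and 19.8 to 49.1 CPM in knock-in males. In wild-type females it ran from 22.6 to 36.9 CPM in normal colon and from 36.1 to 45.0 CPM in tumours. Macrophage markers, 7 in all, had sums from 170 to 278 CPM in wild-type female normal colon and from 184 to 194 CPM in the tumours. For wild-type males the ranges were 211 to 273 CPM in normal colon and 205 to 293 CPM in tumours. For knock-in males they were 228 to 308 and 157 to 251 CPM. The part of these cells in the Il23a values was not tested.

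Il17a, the effector cytokine of type 17 cells, was counted so rarely that it did not pass the filter on low counts. Wild-type female tumours held 8, 6 and 7 counts and normal colon 1, 2 and 0. The pooled 21 and 3 counts give a ratio of 10.4 (95% counting interval 3.10 to 54.4). Wild-type male tumours held 6, 3 and 1 counts and normal colon 1, 3 and 0, with a ratio of 3.95 (1.14 to 17.3). Knock-in male tumours held 0, 3 and 1 counts. All 6 knock-in normal libraries, male and female, were at 0, which allows a level of up to 0.0788 CPM in the males and 0.0774 CPM in the females when 3 counts over the group are taken as the limit. Wild-type normal colon, with 4 and 3 pooled counts at 0.0897 CPM in males and 0.0805 CPM in females, was barely above that limit. These counts are too few to settle whether the genotypes differ. Without the filter on low counts, edgeR gave Il17a an adjusted p of 0.0355 in wild-type females and 0.218 in wild-type males.

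Il23r, the IL-23 sensor of type 17 cells, was near the floor in all groups, with 1 to 14 counts a library. Group means ran from 0.388 ± 0.263 CPM in wild-type male normal colon to 1.12 ± 0.577 CPM in wild-type female normal colon. In wild-type females the tumours held 3, 5 and 2 counts and normal colon 13, 8 and 11. The tumour-to-normal ratio of the pooled 10 and 32 counts was 0.464 (0.204 to 0.968), and the libraries overlapped in CPM.

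**Figure D3:**
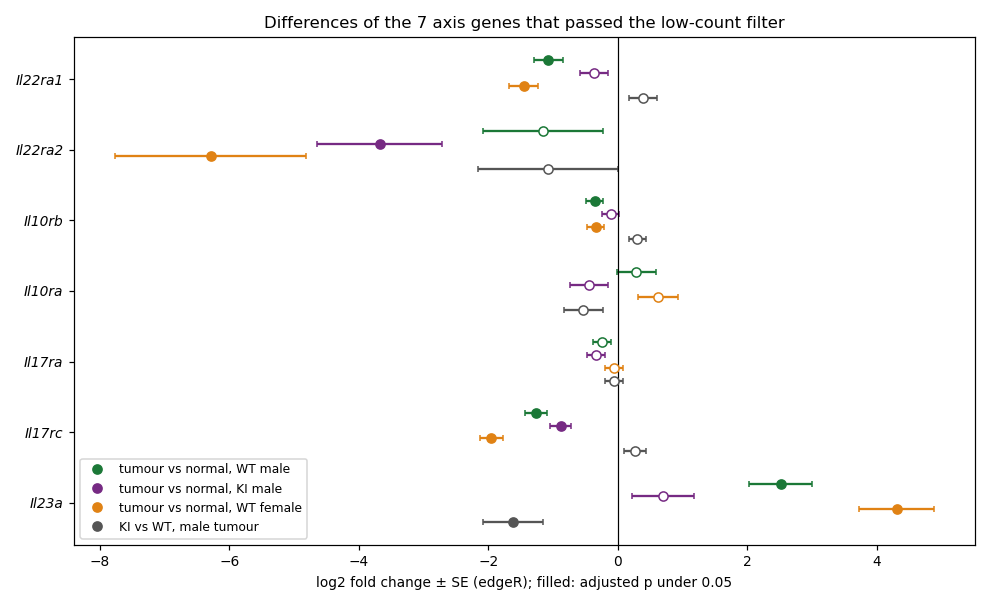
Points give the log2 fold change of each of the 7 tested genes in 4 comparisons, with bars of 1 SE and filled symbols where edgeR's adjusted p was under 0.05. The filled Il22ra2 point of knock-in males is a description only, as that value was known when the genes were chosen. Il22ra1 and Il17rc lie to the left of 0 in all 3 tumour comparisons, Il23a to the right with 4.30 in wild-type females, and the bars of Il22ra2, whose tumour counts are near 0 in females, are the widest.

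Between genotypes the question of the series is why the treatment had other outcomes in mutant animals. Among male tumours 1 of the 7 tested genes differed, where 14.5% of all tested genes did and 5.23% were lower: Il23a was lower in knock-in tumours, at 3.13, 3.55 and 2.06 CPM, than in wild-type tumours, at 5.76, 11.6 and 10.1 CPM. The groups did not overlap (log2 fold change -1.62, SE 0.47, adjusted p = 0.0304). The call was lost in 9 of 18 alternatives, among them the omission of wild-type tumour replicate 2 or 3 or of any knock-in tumour library, with adjusted p from 0.00713 to 0.0943 and log2 fold changes from -1.92 to -1.43. In the authors' deposited table the same difference is -1.65 with an adjusted p of 0.00726. Dendritic cell markers stood at 0 of 9 called and macrophage markers at 2 of 7 lower in the same comparison.

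The other chains did not pass between male tumours. Il22ra1 had a log2 difference of 0.40 (SE 0.22, adjusted p = 0.216), Il10rb of 0.30 (SE 0.13, adjusted p = 0.124) and Il17rc of 0.27 (SE 0.17, adjusted p = 0.273), all toward knock-in tumours. For Il10ra it was -0.53 (SE 0.30, adjusted p = 0.229) and for Il22ra2 -1.07 (SE 1.08, adjusted p = 0.513). Whether the tumour effect itself differed between genotypes was tested as an interaction, which 0 of the 7 genes passed with edgeR (2 at an unadjusted p under 0.05, 1.51% of all genes past the threshold). The interaction was -1.81 for Il23a (SE 0.68, adjusted p = 0.117), 0.71 for Il22ra1 (SE 0.31, adjusted p = 0.164) and 0.38 for Il17rc (SE 0.24, adjusted p = 0.314). For Il10ra it was -0.74 (SE 0.42, adjusted p = 0.273). For Il22ra2 it was -2.52, given as a description with no test. It contains the knock-in male difference known when the genes were chosen, so its place in the count of 7 carries no weight. The calls seen in 1 genotype and not in the other are therefore not shown to differ between genotypes.

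In normal colon no gene of the axis passed between genotypes. In males edgeR called 0 of 7, and 0 at an unadjusted p under 0.05, where 0.0126% of all genes passed. In females it called 0 of 7, and 1 at an unadjusted p under 0.05, where 16% of all genes passed. Il22ra2 had the widest separation of means, 5.92 against 2.08 CPM in males (log2 fold change 1.45, SE 0.80, adjusted p = 0.99998) and 8.03 against 3.80 CPM in females (log2 fold change 1.04, SE 0.79, adjusted p = 0.398). In females every knock-in library, the lowest at 5.82 CPM, was above the highest wild-type one at 5.20 CPM, while the male groups overlapped. B cell and follicle markers summed to 66.4 to 143 CPM in knock-in female normal colon and to 13.1 to 77.6 CPM in wild-type, and 0 of 9 passed. For Il10ra the female difference was 0.51 (SE 0.30, adjusted p = 0.263) and for Il17ra 0.32 (SE 0.14, adjusted p = 0.131).

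Between sexes 1 gene passed. Il23a was lower in wild-type female than in wild-type male normal colon, at 0.411 ± 0.272 against 1.54 ± 0.992 CPM (SD, n = 3 each; log2 fold change -1.92, SE 0.59, adjusted p = 0.0342), 1 of 7 tested genes where 15.9% of all genes passed and 10.2% were lower. The lowest male library, at 0.497 CPM, lay inside the female range, and the call was lost in 7 of 16 alternatives (adjusted p from 0.00819 to 0.141), including the omission of male replicate 1 or 2 or of any female library. In knock-in normal colon the female libraries had 0.357, 0.337 and 0.459 CPM and the males 1.31, 0.950 and 3.20 CPM, without overlap, but no gene of the axis passed with edgeR (1 at an unadjusted p under 0.05, 0.584% of all genes past the threshold). The Il23a difference there was -2.19 (SE 0.58, adjusted p = 0.0840). In the authors' deposited table, which gives it as 2.19 for males over females, its adjusted p is 0.0161.

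Il17rc had a female-to-male log2 difference of 0.47 in wild-type normal colon (SE 0.17, adjusted p = 0.0608), which missed the threshold. In the authors' deposited table it is -0.46 for males over females with an adjusted p of 0.0466. In tumours of wild-type mice 0 of 7 genes passed between sexes with edgeR (1 at an unadjusted p under 0.05, 0.86% of all genes past the threshold). The widest difference there was that of Il22ra2, with 18, 5 and 4 counts in males and 0, 0 and 1 in females (log2 fold change -4.30, SE 1.74, adjusted p = 0.172). In the authors' deposited table it is 4.57 for males over females with an adjusted p of 0.0386. The interaction of tumour with sex passed for 0 of 7 genes with edgeR (3 at an unadjusted p under 0.05, 1.12% of all genes past the threshold). It was -0.69 for Il17rc (SE 0.24, adjusted p = 0.176), 1.79 for Il23a (SE 0.74, adjusted p = 0.278) and -5.13 for Il22ra2 (SE 1.93, adjusted p = 0.222). The interaction of genotype with sex in normal colon passed for 0 of 7 genes, and 0 at an unadjusted p under 0.05, against 2.54% of all genes.

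The other ligands of the axis were mostly under the count filter, as 2 of 12, Il17c and Il17d, passed it. Il22 itself was at 9, 3 and 0 counts in wild-type female tumours and at 0 to 2 counts in each of the other 18 libraries. Il17c, an epithelial cytokine that acts on IL-17RE, was at 2.83 CPM in wild-type male tumours against 0.548 CPM in normal colon (log2 fold change 2.35, SE 0.40, adjusted p = 0.000269). Male tumours of the knock-in held less of it than wild-type ones (log2 fold change -1.41, SE 0.38, adjusted p = 0.0239), a call that 10 of 18 alternatives kept and that was lost without wild-type replicate 1 or 2 or knock-in replicate 2. Il17d rose in wild-type female tumours (log2 fold change 1.00, adjusted p = 0.0342), which 8 of 18 alternatives kept and which was lost without normal replicate 1 or 2 or tumour replicate 1 or 3.

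The counts of the lists that follow stand beside the shares of all genes called in the same comparisons, which were 35.7% for male and 49.1% for female wild-type tumours and 20.4% for the knock-in tumours. No list was tested against them. Of 11 further receptor chains, 2 rose and 2 fell in wild-type male tumours, 1 rose in knock-in male tumours, and 3 rose and 2 fell in wild-type female tumours. Il17re, the receptor for IL-17C, fell from 15.5 to 5.24 CPM in wild-type males (log2 fold change -1.55, SE 0.27, adjusted p = 0.000285) and from 21.1 to 4.37 CPM in wild-type females (log2 fold change -2.27, SE 0.27, adjusted p = 3.16e-06). Male tumours of the knock-in held more of it than wild-type ones, 10.7 against 5.24 CPM (log2 fold change 1.04, adjusted p = 0.0204), which 15 of 19 alternatives kept and which was lost without wild-type replicate 1 or 2 or knock-in replicate 2. Ifngr1, the ligand-binding chain of the interferon gamma receptor, fell by 1.14 and 1.37 on the log2 scale in wild-type males and females (adjusted p = 5.43e-05 and 2.91e-06). Il17rd, a chain better known as a brake on growth factor signalling, rose in all 3 tumour comparisons, by 0.96 in wild-type males, 1.57 in wild-type females and 0.66 in knock-in males (adjusted p = 0.00216, 1.49e-05 and 0.0345), the last kept by 9 of 19 alternatives and lost without normal replicate 1 or 2 or tumour replicate 1 or 3.

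Of 13 signalling and feedback components, 1 rose and 2 fell in wild-type male tumours, 2 rose in knock-in male tumours, and 2 rose and 4 fell in wild-type female tumours. The median log2 fold changes were 0.11, 0.08 and -0.01. Stat3, the transcription factor downstream of IL-22 and IL-10, had a log2 fold change of 0.34 in wild-type males (SE 0.12, adjusted p = 0.0346). With the replicate block Stat3 had a log2 fold change of 0.32 and an adjusted p of 0.0544, and the call was kept by 9 of 18 alternatives (adjusted p from 0.0206 to 0.156) and lost without normal replicate 1 or 3 or tumour replicate 1 or 2. Traf3ip2, which encodes the adaptor Act1 of the IL-17 receptors, fell by 0.44 in wild-type females (SE 0.12, adjusted p = 0.00412). Nfkbiz, a nuclear co-factor induced by IL-17, fell by 1.00 there (SE 0.23, adjusted p = 0.00166).

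Of 9 transcription factors and inducers of type 17 cells, 3 rose and 2 fell in wild-type male tumours, 1 rose and 1 fell in knock-in male tumours, and 4 rose and 2 fell in wild-type female tumours. Tgfb1, which together with IL-6 starts the type 17 program in T cells, rose by 0.88 in wild-type males and 2.57 in wild-type females (adjusted p = 0.000592 and 4.74e-08). Il1b rose by 2.73 and 4.25 (adjusted p = 0.0105 and 0.000551), the former lost in a fit of only the compared groups and without tumour replicate 2. Between genotypes, Tgfb1 was lower in male tumours of the knock-in, at 31.3 against 52.0 CPM (log2 fold change -0.73, SE 0.17, adjusted p = 0.0120), a call that all 19 alternatives kept.

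The targets of IL-22 and IL-17, most of them antimicrobial genes and chemokines, were the longest list. Of 20 tested, 5 rose and 2 fell in wild-type male tumours, 1 rose and 3 fell in knock-in male tumours, and 12 rose and 4 fell in wild-type female tumours. The median log2 fold changes were 1.35, 1.74 and 2.72, beside 0.01 for all genes in each. Lcn2, a siderophore-binding antimicrobial protein, rose from 2.83 to 180.3 CPM in wild-type females (log2 fold change 6.16, SE 1.12, adjusted p = 0.000344) and from 12.8 to 88.7 CPM in wild-type males (log2 fold change 2.79, SE 0.91, adjusted p = 0.0261), the latter kept by 14 of 18 alternatives and lost without normal replicate 1 or 3 or tumour replicate 1. Saa3, an acute phase protein, rose by 5.61, 2.89 and 3.24 in wild-type females, wild-type males and knock-in males (adjusted p = 0.00118, 0.0310 and 0.0370), kept by 19 of 19, 13 of 18 and 9 of 19 alternatives. The wild-type male call was lost without normal replicate 1 or 3 or tumour replicate 1 or 2, and the knock-in call without any normal library or tumour replicate 2 or 3. The antimicrobial lectin Reg3g and the neutrophil protein S100a9 rose in wild-type females by 5.30 and 5.26 (adjusted p = 0.00880 and 0.00329). For Reg3g the value was 2.89 with an adjusted p of 0.203, the highest over its alternatives (0.000132 to 0.203), without the libraries numbered 152 and above, which include 2 of the 3 wild-type female tumours. Pigr, which carries IgA into the lumen, fell in knock-in males by 1.35 (SE 0.18, adjusted p = 0.00107), and Saa1 fell there by 3.43 (SE 0.72, adjusted p = 0.00605), so this list did not move in 1 direction. Wild-type male tumours held still less Pigr than knock-in ones, 893 against 1438 CPM (log2 fold change of knock-in over wild-type 0.69, adjusted p = 0.0196). That call was lost without wild-type replicate 1 or 3 or knock-in replicate 1. Neutrophil markers, which include S100a8 and S100a9, rose for 2 of 6 in wild-type males, 0 of 6 in knock-in males and 6 of 6 in wild-type females, and their part in these values was not tested.

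**Figure D4:**
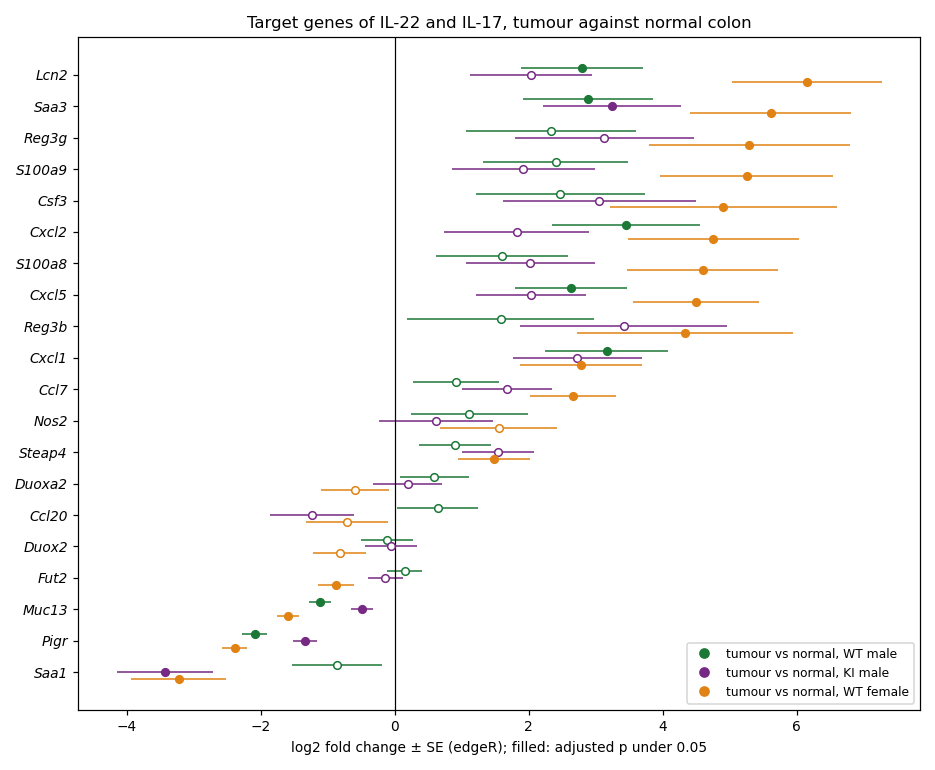
Rows are the 20 tested targets of IL-22 and IL-17, and points give the log2 fold change of tumour over normal colon in 3 comparisons with bars of 1 SE, filled where edgeR's adjusted p was under 0.05. Lcn2 and Saa3 lie right of 0 in all 3 comparisons, Pigr and Muc13 left of 0, and 12 filled points of wild-type females lie to the right.

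The same lists were set beside the genotypes in normal colon. In males none of the genes on the 5 lists passed. In females 0 of the 20 targets rose and 7 fell in knock-in colon, with a median log2 fold change of -1.48 beside 0.02 for all genes, of which 16% passed in either direction. Duox2 and Duoxa2, the epithelial oxidase and its maturation factor, were at 159 and 21.1 CPM in knock-in and at 838 and 143 CPM in wild-type females (log2 fold changes -2.40 and -2.75, SE 0.41 and 0.55, adjusted p = 0.00143 and 0.00402), and the call of Duoxa2 was lost in a fit of only the compared groups. Between sexes in wild-type normal colon, 4 of the 20 targets were higher in females than in males. Of all genes, 15.9% passed in that comparison in either direction: 10.2% were lower in females, and only the rest of the 15.9% were higher. The values that follow again compare knock-in with wild-type female normal colon. Socs3, the feedback inhibitor induced by STAT3, was lower by 3.09 (SE 0.85, adjusted p = 0.0239), kept by 9 of 15 alternatives. Its log2 fold change was -1.15 (adjusted p = 0.283) without wild-type replicate 2 and -1.59 (adjusted p = 0.153) with limma voom, and the call was also lost without any 1 knock-in library and in a fit of only the compared groups. Nfkbiz and Zc3h12a were lower by 1.13 and 1.07 (adjusted p = 0.00374 and 0.0211), the latter kept by 11 of 15 alternatives and lost without wild-type replicate 2 or either of the unnumbered knock-in libraries. Tgfb1 was higher, 20.7 against 7.26 CPM (log2 fold change 1.54, SE 0.18, adjusted p = 5.10e-05). Markers of other cells moved in the same comparison. Smooth muscle markers were higher for 3 of 8 genes, with sums from 6815 to 9563 CPM in knock-in and from 1975 to 4566 CPM in wild-type colon, and fibroblast markers for 3 of 7, with sums from 2247 to 2827 and from 1161 to 1409 CPM. Macrophage markers were higher for 2 of 7, with sums from 236 to 266 and from 170 to 278 CPM that overlap. Epithelial markers were lower for 2 of 9, with sums from 9771 to 10062 CPM in knock-in and from 10459 to 11272 CPM in wild-type colon. The part of these cells in the values of the targets and of Tgfb1 was not tested.

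The genes whose log2 CPM followed each gene of the axis most closely over the 21 libraries are given as a description, since the libraries share groups and depth. Il22ra1 was nearest to Tmem246, Tmbim6 and Gprin3 (Pearson r 0.97, 0.97 and 0.96), and Il17rc to Fam83e, Tep1 and Gstm2 (0.98 each). The pair Il22ra1 and Il17rc had an r of 0.92, and Il17rc and Il23a one of -0.91. For the decoy Il22ra2 the nearest genes were Pcdh15 (0.95), Spib (0.91) and the B cell gene Ms4a1 (0.90). Il10ra was nearest to the leukocyte genes Lcp1, Themis2 and C1qb (0.90 each), Il10rb to Scamp1, Stx17 and Tmc7 (0.92, 0.90 and 0.90), and Il17ra to Traf5, Tapbpl and Cyp2w1 (0.80 each). Il23a was nearest to Epb4.1l2, Angpt2 and Rrs1 (0.97 each). For Il17a, nearest to Odc1, Itpa and Ccl7 (0.89 each), and Il23r, nearest to Cd48, Cd28 and Gatm (0.70, 0.69 and 0.68), counts were too few for the likeness to carry weight.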

How the data were processed

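Colon RNA was sequenced on an Illumina instrument after removal of ribosomal RNA by RNase H and random-hexamer priming, per the labels' protocols. The authors deposited raw counts per gene for 24062 genes. The tools named are Trimmomatic, HISAT2, featureCounts and DESeq2, with the build mm10, per the submitters' processing notes; strand setting and annotation are not given in the sources used here. A second table holds log2 fold changes and adjusted p-values that the authors deposited, used only where named. Among the count columns, 2 of the knock-in female normal group have an identical name and were used as unnumbered replicates of it.

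Differences were tested on the deposited counts with edgeR (quasi-likelihood F test, TMM scaling, filterByExpr by group, robust fitting, all 21 libraries, 1 coefficient a group, two-sided), with Benjamini-Hochberg adjustment over the 15936 genes left by the filter and a threshold of 0.05. CPM values use TMM-scaled library sizes, and log2 CPM a prior count of 2. Intervals of count ratios and limits for 0 counts cover counting error only, at 95% confidence, as reads carry no molecular identifiers. R 4.3.3, edgeR 4.0.16, limma 3.58.1 and DESeq2 1.42.0 were used. In a simulation of wild-type male tumours against normal colon on 15774 genes, 200 were changed, none of them among the genes with the lowest counts. The test recovered 84% of those changed by 2 log2 units and 44% of those changed by 1, with 3 false calls. Far more genes passed in the data (35.7%), so these rates need not hold there or for genes with low counts.

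The 9 genes and all lists were chosen with earlier results of these data known. Named were all 9 genes, from each pathway list up to 4 called genes with the largest fold change in a comparison of tissues or genotypes and a mean of 20 or more counts in 1 group, list members, and 3 nearest genes by correlation. Il22 was named after its values were seen. Values of some list genes are not reported here. Replicate numbers come from the labels. Same-numbered wild-type male libraries deviated together (correlations 0.17, 0.17 and 0.21). So did replicate 1 of male normal colon across genotypes (0.46), where libraries cannot be pairs. Such correlations therefore do not show pairing, and the reported fit is unpaired. Alternatives were other scalings, filters, tools, covariates, a replicate block and the omission of each library, and 2 were added after seeing the data: the 18 numbered libraries without a block, and the fit without 3 libraries numbered 152 and above.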

Additional observations from a re-analysis of the deposited data

How the results depend on the processing

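Of 1919 values of named genes under an alternative, 1684 kept their direction and their side of the threshold, 219 lost the call, 15 gained one and 1 reversed: Il22ra2 in wild-type male tumours, from -1.64 to 0.53 when 1 library is left out, the highest without normal replicate 1. Il22ra1, Il17rc and Il23a in both wild-type tumour comparisons and Il22ra2 in wild-type females kept the call in all alternatives run. Numbers of the 7 genes called, Il22ra2 in knock-in males included, changed as follows, with causes not tested. A minimum mean of 50 counts, which removes low genes such as Il23a, gave 1 in knock-in male tumours (2 with the reported fit), 3 in wild-type female tumours (5), 0 between male tumours of the genotypes (1) and 0 between sexes in wild-type normal colon (1). In knock-in male tumours limma voom, a fit of only the compared groups and GC and length offsets each gave 1, and the 18 numbered libraries 3. In wild-type males (4) library totals, no filter, the mean of 50, the block, the covariate and both fits with offsets gave 3. In wild-type females voom gave 6, and library totals, only the compared groups, the block with or without offsets, the covariate and the fit without libraries numbered 152 and above gave 4. Between male tumours of the genotypes, the replicate block, a covariate for libraries numbered 152 and above, GC and length offsets with the block, and the fit without these 3 libraries each gave 0. Between sexes in wild-type normal colon the DESeq2 Wald test gave 2, voom 3, GC and length offsets 2, only the compared groups 0 and the block 0. The DESeq2 Wald test gave 1 between sexes in wild-type tumours, in knock-in normal colon and in the interaction of tumour with sex, and voom gave 1 in that interaction (0 with the reported fit). Leaving out 1 library gave 3 to 4 in wild-type male, 1 to 2 in knock-in male and 4 to 5 in wild-type female tumours, 0 to 1 between genotypes in male tumours and in female normal colon, 0 to 2 and 0 to 1 between sexes in wild-type and knock-in normal colon, and 0 to 1 in the interaction of tumour with genotype.

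The block changed the call of Il10rb in wild-type male and female tumours (adjusted p = 0.0647 and 0.0586) and of Il23a between male tumours and between sexes in wild-type normal colon (0.0523 and 0.0653), and of no other gene of the axis. Outside the wild-type male comparison the mean correlations of same-numbered libraries ran from -0.12 to 0.06, with a single value of 0.46 for replicate 1 of male normal colon across genotypes. No paired analysis was possible for knock-in female normal colon because 2 of its columns carry no distinct number. At 3414123 counts in the shallowest library, Il17a, Il23r and Il22 were near the floor.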
